A study of Mus musculus with 6 samples.

Results

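The numbered zinc finger genes of the mouse carry the symbol Zfp followed by a number, and they were taken as every gene of the deposited fetal against adult Leydig cell table whose name begins with Zfp and a digit. The table held 232 such genes among 10580, or 2.19% of its rows. They were 231 of the 394 annotated protein-coding symbols of that form (58.6%), the remaining gene, Zfp607, being annotated today as Zfp607a. Of all 22028 annotated protein-coding genes, 10455 (47.5%) matched a row. The authors listed genes by their own comparison of the stages, with an adjusted p below 0.05 in each row, so the genes described here are those that passed that limit, and Zfp genes without a row were not analysed here.

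Testicular androgens are made by Leydig cells, which lie between the seminiferous tubules. The 6 libraries were 3 of fetal Leydig cells (FLCs) at E18.5 and 3 of adult Leydig cells (ALCs) at P100, all from XY mice whose genotype is given as Nr5a1 Tg. According to the study's methods, heterozygous Tg(Nr5a1-GFP) males were mated with CD-1 females, and live single cells with strong GFP fluorescence were sorted at both stages, the fetal cells of several sorts being pooled. The transgene marks cells that use the Nr5a1 promoter, which in the testis include Sertoli cells at lower fluorescence, so the purity of the cells rests on that gate. The value used here is the authors' mean of normalized counts over all 6 libraries, which carries no replicate error. No value per library was used, so the levels below describe FLCs and ALCs together and no difference between the stages was computed. In RNA from sorted bulk cells, fewer cells of a type and less RNA per cell cannot be told apart.

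Most zinc finger proteins of this kind bind DNA through tandem fingers, each built around a pair of cysteines and a pair of histidines that hold a zinc ion. Many also carry a KRAB domain, which recruits the corepressor Trim28 and through it the histone methyltransferase Setdb1, heterochromatin protein and the NuRD complex, and such proteins are known for silencing retroelements and for keeping imprints. The Zfp symbol was given for the finger alone, so it also covers activators, RNA-binding proteins and proteins that have only a distant finger. The genes of the KRAB branch arose largely by tandem duplication and lie in clusters.

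The label of these genes as largely KRAB repressors was checked on their annotated proteins. A KRAB A-box pattern was found in 125 of the 232 proteins (53.9%), and 133 (57.3%) matched a profile built from those boxes. At least 1 finger of the classical spacing was found in 223 proteins (96.1%) and at least 5 in 193 (83.2%). Both a KRAB pattern and 5 or more fingers were found in 123 (53.0%). The KRAB class was therefore a small majority of the 232 listed genes, and 107 of them had no such pattern. Zfp genes without a row were not searched.

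The stretches before the transcription start of 3 genes are printed as examples. They are the member with the highest level, the KRAB member with the highest level and a KRAB member close to the lowest level. Each is the 250 bases upstream of the start in the RefSeq promoter set of GRCm38.p6, 5′ to 3′ on the gene's strand, with CG dinucleotides in capitals. Zfp36 lies at chr7:28379229-28379478 on the minus strand, inside the longer gene that GENCODE annotates there. Zfp266 lies at chr9:20521420-20521669 on the minus strand, and Zfp819 at chr7:43606919-43607168 on the plus strand.
Zfp36: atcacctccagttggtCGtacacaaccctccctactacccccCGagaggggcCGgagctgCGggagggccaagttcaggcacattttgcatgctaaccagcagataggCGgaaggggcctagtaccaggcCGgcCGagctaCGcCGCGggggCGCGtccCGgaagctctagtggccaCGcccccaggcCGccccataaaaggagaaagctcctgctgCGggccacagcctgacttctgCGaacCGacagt
Zfp266: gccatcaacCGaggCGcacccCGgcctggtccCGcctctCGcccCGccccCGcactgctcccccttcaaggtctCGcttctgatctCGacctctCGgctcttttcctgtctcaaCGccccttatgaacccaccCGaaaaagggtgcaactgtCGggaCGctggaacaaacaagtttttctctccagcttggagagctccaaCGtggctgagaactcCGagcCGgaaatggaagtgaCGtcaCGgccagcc
Zfp819: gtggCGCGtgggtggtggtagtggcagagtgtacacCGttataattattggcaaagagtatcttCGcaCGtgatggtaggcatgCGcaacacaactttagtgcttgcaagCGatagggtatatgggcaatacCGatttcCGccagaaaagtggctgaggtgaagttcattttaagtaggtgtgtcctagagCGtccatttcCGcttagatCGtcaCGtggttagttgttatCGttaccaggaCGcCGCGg
The Zfp36 stretch held 18 CG dinucleotides, that of Zfp266 held 19 and that of Zfp819 held 17. Their genes had levels of 5060, 351 and 2.54 normalized counts per kb of exon. The number of CG dinucleotides was thus similar in these 3 stretches, which do not stand for the family. The promoter window of Zfp819, 250 bases before to 50 after the start, held 20 CG dinucleotides. The median of KRAB members in that window was 10. Over 192 members the ratio of observed to expected CG had a Spearman's rho of 0.30 with the level. The GC content fell in the same order as the level, from 64.8% through 61.2% to 49.6%.

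The Zfp genes as a group were expressed at modest levels. The median member had a mean of 425 normalized counts, with an interquartile range of 180 to 1013, and the median over all listed genes was 679. Divided by the length of the union of each gene's exons, the median level was 93.8 normalized counts per kb for the members, with quartiles at 40.3 and 168, and 147 for all listed genes, with quartiles at 31.8 and 427. The spread among members was therefore narrower on both sides than that of the whole table. Of the 232 members, 69 (29.7%) lay above the median of all listed genes per kb, 3 lay in the highest 10% and 8 in the lowest 10%. A mean under 10 normalized counts was found for 3 members and a mean under 100 for 30 (12.9%), beside 23.0% of all listed genes. Together the members held 0.904% of the summed normalized counts of the table while making up 2.19% of its genes.

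The KRAB members accounted for much of the low part of that range. Their median was 64.1 normalized counts per kb, with quartiles at 34.0 and 105, and that of the members without a KRAB pattern was 153, with quartiles at 89.1 and 243. Of the KRAB members, 14 of 125 (11.2%) lay above the median of all listed genes and 0 of 125 were in the highest 10%. Among the other members 55 of 107 (51.4%) lay above that median, close to the midpoint of the table, and 3 were in the highest 10%. None of the 10 highest members carried the pattern, and it was carried by 9 of the highest 50, 39 of the lowest 50 and 7 of the lowest 10. With KRAB assigned by the profile instead, the medians were 68.2 and 157 normalized counts per kb. No test was run on this contrast, because genes are not replicates and the classes share the same 6 libraries.

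**Figure D1:**
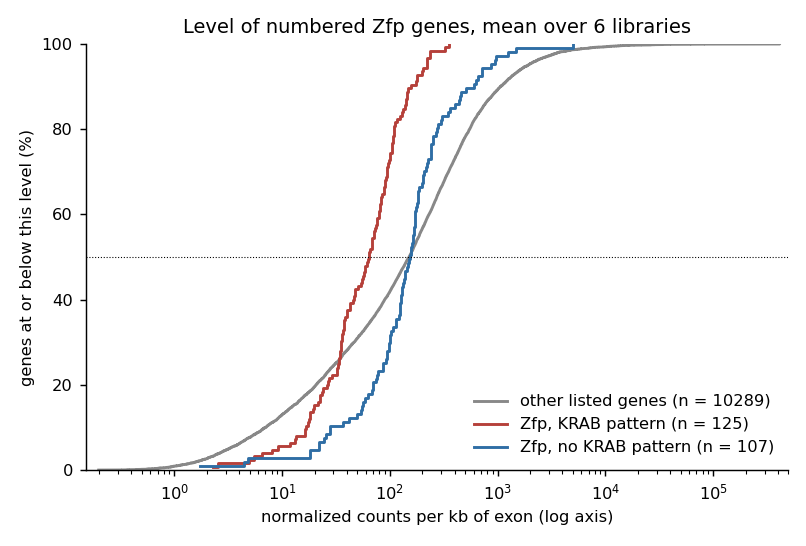
Cumulative share of genes (percent, vertical axis) at or below each level in normalized counts per kb of exon (horizontal axis, log scale), for Zfp genes with a KRAB pattern, Zfp genes without one and all other listed genes with a length. The KRAB curve crosses the dotted 50% line at 64.1 and ends at 351, and the curve of the other Zfp genes crosses it at 153, near the curve of the other listed genes at 151.

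The highest member was Zfp36, at chromosome 7, 28376784 to 28380253, which encodes tristetraprolin, a protein that binds AU-rich elements and promotes the decay of the mRNAs that carry them. Its mean was 17557 normalized counts and its level 5060 per kb of exon, above 98.7% of listed genes. Its fingers are of another kind, with 3 cysteines and 1 histidine, and the search found 2 of these and no classical finger. It was the single member with such fingers, and its paralogs Zfp36l1, Zfp36l2 and Zfp36l3 had no row. The gene thus belongs to the list by its symbol and not by its protein family.

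The next members were also far above the family median. Zfp703, at chromosome 8, 26977325 to 26981461, encodes a corepressor of the Nlz family and had a level of 1487 normalized counts per kb. Its relative Zfp503 was at 222 per kb. In neither protein was a classical finger found. Zfp395, at chromosome 14, 65358389 to 65398930, had 1 finger and a level of 1249 per kb, the lowest of the 3 members in the highest 10%. Zfp185, an X-linked gene for a LIM-domain protein associated with actin, was at 960 per kb and held no classical finger either. Zfp106, which encodes an RNA-binding protein of motor neurons and muscle, was at 944 per kb with a mean of 9843 normalized counts, spread over 10.4 kb of exon. The 5 highest members thus held between 0 and 3 classical fingers each.

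Below them came members that, apart from Zfp706, held more fingers. Zfp275 on the X chromosome, with 11 fingers, was at 869 normalized counts per kb, Zfp362 at 719 and Zfp687 at 712. Zfp706, a small protein with a single finger, was at 662, and Zfp146, with 10 fingers that make up 72.6% of the protein, at 627. The 10 highest members lay on 8 chromosomes if X is counted, with Zfp36 and Zfp146 both on chromosome 7 and Zfp185 and Zfp275 both on X.

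**Figure D2:**
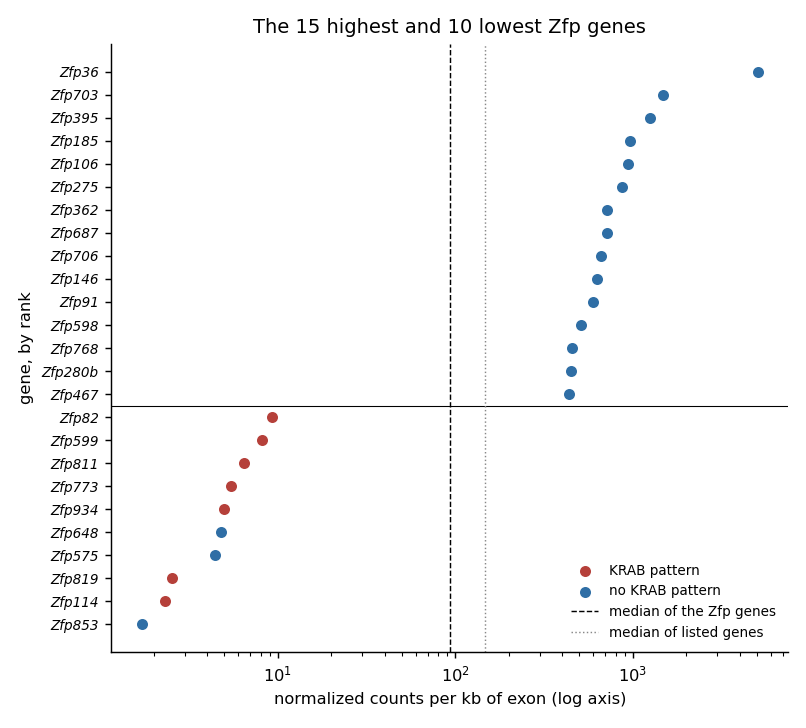
The 15 highest and the 10 lowest Zfp genes by level in normalized counts per kb of exon (horizontal axis, log scale), as the authors' mean over 6 libraries without error bars, colored by the KRAB pattern. The upper 15 run from 439 for Zfp467 to 5060 for Zfp36 and hold no KRAB gene, while 7 of the lower 10 are KRAB genes.

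At the other end, Zfp853 had a level of 1.72 normalized counts per kb and a mean of 5.40. Zfp114 followed at 2.30 per kb, Zfp819 at 2.54, Zfp575 at 4.45 and Zfp648 at 4.79. The means of Zfp853, Zfp819 and Zfp648 were below 10 normalized counts, so their values rest on few reads. Zfp114 and Zfp819 carry a KRAB pattern and the other 3 do not.

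The members with known roles were followed through a list of 37 genes, of which 27 had a row. A row means an adjusted p below 0.05 in the authors' stage comparison, and 58.6% of annotated protein-coding Zfp symbols had a row. Zfp57 and Zfp445, KRAB proteins that keep parental methylation at imprinting control regions, were at 111 and 238 normalized counts per kb. The KRAB members with the highest levels, Zfp266 at 351 and Zfp777 at 322 per kb, were chosen for mention after their values were seen. Zfp568, which represses a placental promoter of Igf2, was at 123 per kb. Among the KRAB proteins that silence retroelements, Zfp809, which acts on murine leukaemia proviruses, was at 141 per kb. Zfp932 was at 37.8 and Zfp708 at 36.0. The imprint and provirus factors thus lay above the median of the KRAB members, and Zfp932 below it. The value of Zfp708 was also below it, but its exons are overlapped by another gene model, so its level is uncertain.

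The differentiation factors of the list had a row in 7 of 7 cases, beside 58.6% of annotated protein-coding Zfp symbols. That count was not tested and is not a count of expressed genes. Zfp423, a factor of adipocyte and cerebellar differentiation, was at 170 normalized counts per kb, and its paralog Zfp521, a mesenchymal and haematopoietic factor, at 271. Zfp467, which acts in the choice between fat and bone fate, was at 439. Zfp516, an activator in brown fat, was at 197, and Zfp462, a chromatin factor of early development, at 136. With Zfp703 and Zfp503, 6 of the 7 were above the median of all listed genes, 147 per kb, and Zfp462 was below it. None of the 7 carried a KRAB pattern.

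The promoter factors of the list lay near the middle of the table. Zfp148, which binds GC-rich promoters, was at 305 normalized counts per kb, Zfp217, a corepressor-associated factor, at 181, and Zfp281, a GC-rich promoter factor of stem cells, at 146. Zfp410, known as an activator of the NuRD gene Chd4, was at 102. Zfp143 and Zfp335 had no row.

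Several members on the list act on RNA or protein rather than on DNA. Zfp598, the ubiquitin ligase that marks collided ribosomes, was at 511 normalized counts per kb and Zfp91, a ubiquitin ligase of NF-kappaB signalling, at 599. Zfp593, a factor of 60S ribosome biogenesis, was at 127. Zfp830, associated with the spliceosome, was at 301 and Zfp326, which couples transcription and splicing, at 127. Outside that group, Zfp260, a partner of Gata4 in the heart with 12 classical fingers, was at 358. Zfp280c, listed only as a gene of the X chromosome, was at 100. The X chromosome held 4 members in all, from 100 to 960 per kb, none with a KRAB pattern.

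KRAB members held more fingers than the others. The median was 12 fingers in KRAB members and 7 in the others, although the median protein lengths were 579 and 583 residues, so that fingers made up a median of 44.8% and 20.4% of the protein. Most fingers were found in Zfp462 and Zfp619, with 33 each, followed by Zfp236 with 30 and by Zfp423, Zfp521 and Zfp646 with 27 each. Of these 6, Zfp619 was the single KRAB member and was at 35.2 normalized counts per kb, while the others ran from 136 for Zfp462 to 271 for Zfp521, with Zfp236 at 143 and Zfp646 at 203.

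Members with 1 to 4 fingers had a median of 127 normalized counts per kb (30 genes), those with 5 to 8 a median of 107 (42 genes), those with 9 to 12 a median of 86.6 (80 genes), those with 13 to 16 a median of 71.7 (41 genes) and those with 17 or more a median of 76.8 (30 genes). Across the 232 members, Spearman's rho between the number of fingers and the level per kb was -0.26. Within KRAB members it was -0.09 (125 genes) and within the others -0.04 (107 genes). The relation across the family thus went along with the KRAB class and was close to 0 inside each class. These are descriptions across genes of the same libraries.

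Classical fingers were not found in 9 members, which were named after their values were seen: Zfp36, Zfp185, Zfp365, Zfp474, Zfp503, Zfp703, Zfp750, Zfp839 and Zfp935. Their levels ran from 18.3 normalized counts per kb for Zfp365 to 5060 for Zfp36. A SCAN domain pattern, which marks a dimerization domain of some finger proteins, was found in 5 members, also named after their values were seen. Zfp263 was at 244 per kb, Zfp397 at 130, Zfp444 at 125, Zfp202 at 68.6 and Zfp446 at 55.2. Zfp202 also carried the KRAB pattern.

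The genes were not spread evenly over the genome. Chromosome 7 held 59 members (25.4%), beside 7.91% of all listed genes, chromosome 17 held 28 (12.1%, beside 5.02%) and chromosome 13 held 22 (9.48%, beside 3.63%). These 3 chromosomes held 37, 24 and 18 KRAB members. Chromosomes 1, 3, 14, 16, 18, 19 and X held no KRAB member.

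**Figure D3:**
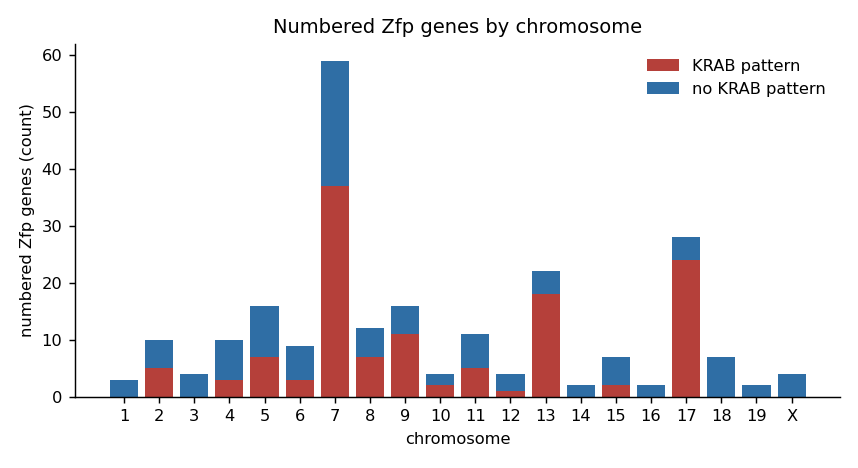
Number of Zfp genes of the table on each chromosome (bars from 0), split into genes with and without a KRAB pattern. Chromosome 7 is the tallest bar with 59 genes, of which 37 are KRAB genes, followed by chromosome 17 with 28 and chromosome 13 with 22.

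Neighbours at most 250 kb apart were joined into clusters, which placed 117 members in 27 clusters and left 115 alone. Of the KRAB members 98 of 125 (78.4%) were in a cluster, and of the others 19 of 107 (17.8%). In level, KRAB members had a median of 61.9 normalized counts per kb in clusters and 65.1 alone. Members without the pattern had a median of 125 per kb in clusters (19 genes) and 162 alone (88 genes).

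The largest cluster lay on chromosome 13 from 67038596 to 67827002 and held 14 members, all with a KRAB pattern. Its median was 33.6 normalized counts per kb, below the KRAB median of 64.1, and its levels ran from 13.3 for Zfp493 to 143 for Zfp87, a ratio of 10.8. A cluster on chromosome 7 from 29768552 to 30169750 held 11 members, 8 of them KRAB genes. It ran from 9.25 per kb for Zfp82 to 627 for Zfp146, a ratio of 67.8, and also held Zfp260 and Zfp568. Both of its highest genes, Zfp146 and Zfp260, are neighbours without the KRAB pattern at its distal end.

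A cluster on chromosome 17 from 32765496 to 33394641 held 11 members, 10 with a KRAB pattern, from 6.48 normalized counts per kb for Zfp811 to 106 for Zfp952. The next, on chromosome 7 from 24112314 to 24301232, held 8 KRAB genes. Zfp114 was at 2.30 per kb there and Zfp61 at 107, a ratio of 46.5 between genes that lie within 189 kb. The last of the 5 largest, on chromosome 17 from 21423227 to 21962464, held 7 KRAB genes between 57.9 per kb for Zfp53 and 221 for Zfp52, a ratio of 3.81. The highest and lowest gene of a cluster thus differed by a ratio of 10.8 or more in 4 of these 5 clusters, and by less in the last. The means of Zfp114 and Zfp811 were 10.2 and 23.0 normalized counts, so the ratios of their clusters rest on few reads.

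**Figure D4:**
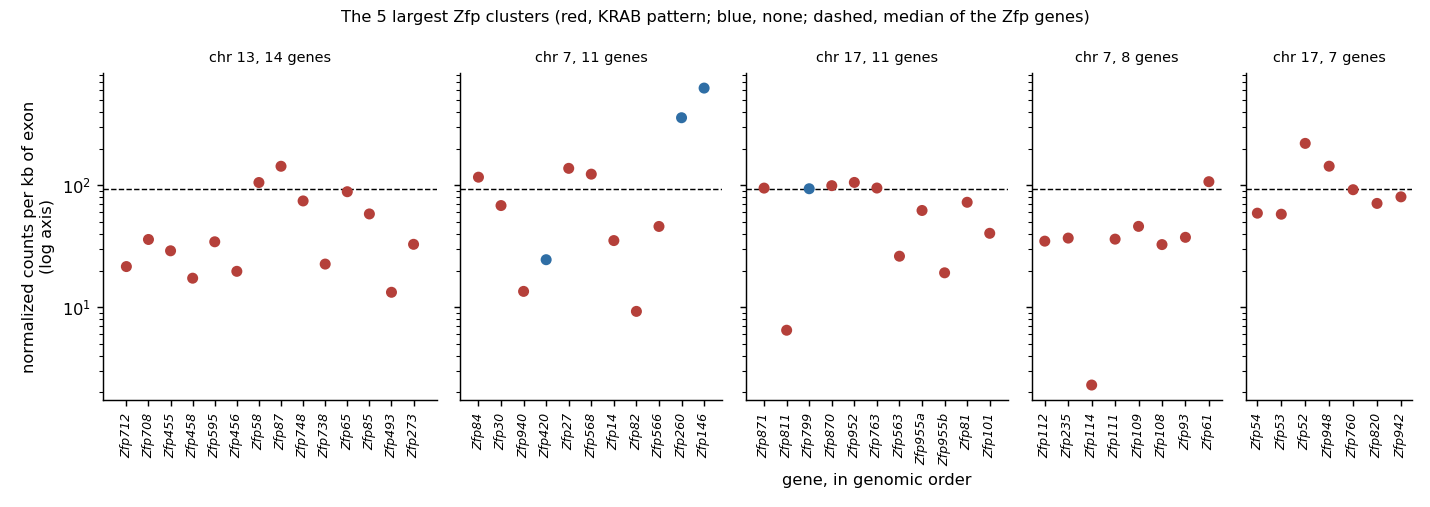
Level in normalized counts per kb of exon (vertical axis, log scale) of the members of the 5 largest clusters, drawn in genomic order without scaled distances, each point being the authors' mean over 6 libraries. The 14 genes of the chromosome 13 cluster lie mostly under the dashed family median of 93.8, and Zfp260 and Zfp146 stand highest at the end of the first chromosome 7 cluster.

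Sequence shared between annotated genes bears on how reads were assigned. A stretch of at least 50 bases identical to another annotated gene was found in 90 members. The matching genes included overlapping models and genes outside the family, such as Snx17 and Bub3, besides other Zfp genes. The count is therefore not a measure of duplication. In 6 members at least 50% of the bases of the longest transcript were shared with other genes. For 3 members at least 50% of the exonic bases were overlapped by a gene on the same strand. The levels of the 6 were treated as uncertain. Shared bases were searched on both strands, whereas the libraries were stranded. Zfp593 had no exonic overlap on its own strand. Whether stranded reads separate such cases was not tested. Zfp708 shared 100.0% of its bases with other genes, the longest match being to the overlapping model Gm28557. Zfp935 shared 98.5%, with the longest match to Gm49359. Zfp593 shared 78.2%, Zfp456 56.3%, Zfp524 53.8% and Zfp58 51.2%. Their levels were 36.0 normalized counts per kb for Zfp708, 61.6 for Zfp935, 127 for Zfp593, 19.7 for Zfp456, 176 for Zfp524 and 105 for Zfp58. Zfp82, the lowest gene of its cluster, shared 42.2% of its bases with other genes, the longest match being to Gm26920. Without the 6 uncertain genes the median of the members was 93.8 per kb, as with them.

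The RefSeq promoter set, 250 bases before to 50 after the start, held 192 of the 232 members. Their median was 15 CG dinucleotides, beside 19 for the other listed genes and 7 for all promoters. KRAB members had a median of 10 and a GC content of 52.3%, and the others a median of 21 and 62.2%. The promoters of KRAB members were thus poorer in CG dinucleotides than those of the other listed genes, and those of the remaining members slightly richer. Across members the ratio of observed to expected CG had a Spearman's rho of 0.30 with the level per kb (192 genes), and of 0.10 within KRAB members and 0.12 within the others.

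Short motifs were counted in the same windows on both strands. The GC box GGGCGG was in 45.3% of member promoters, beside 60.5% of other listed genes and 35.9% of all promoters. CCAAT was in 42.7%, beside 38.1% and 37.9%, and TATAAA in 5.73%, beside 7.71% and 14.2%. The core of ETS factor sites, CCGGAAG, was in 19.8%, beside 14.4% and 9.12%. The core of NRF1 sites, a palindrome of 10 letters, was in 9 member promoters (4.69%), beside 1.74% and 0.977%. The palindromic CRE, TGACGTCA, was in 2.60%, beside 2.86% and 1.88%, and the window of Zfp266 was among the 5 members that held it. The letters AAGGTCA, the core of the site of Nr5a1, which is the master regulator of steroidogenic cells, were in 1 member promoter, that of Zfp644 (137.8 normalized counts per kb, named after its value was seen), or 0.521%. They were in 3.52% of the promoters of other listed genes and 4.66% of all promoters. A match is a run of letters and not a shown site, and a window without it says nothing of the factor.

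The partners through which KRAB proteins act were at a median of 656 normalized counts per kb, beside 64.1 for the KRAB members. Of 15 genes of the KRAB corepressor list, 11 had a row, beside 47.5% of all annotated protein-coding genes. Of these 11, 10 lay above the median of all listed genes. Trim28, the corepressor that the KRAB domain binds, was at 2067 normalized counts per kb. Setdb1, the methyltransferase it recruits, was at 310, and Cbx5, which encodes heterochromatin protein, at 570. In the NuRD complex Chd4 was at 1578 and Rbbp7 at 3754 per kb, and the histone deacetylase Hdac1 at 83.1, the single gene below the median. All 11 were above the median of the KRAB members.

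Of 6 DNA methylation genes, 6 had a row and 2 lay above the median of all listed genes. The counts of rows in these lists stand beside 47.5% of all annotated protein-coding genes and were not tested. The methyltransferase genes Dnmt3a and Dnmt1 were at 302 and 263 normalized counts per kb, Dnmt3b at 20.1 and the cofactor Dnmt3l at 3.93. Of 5 gene names of the HUSH complex, another silencer of retroelements, 3 had a row, from 134 to 498 per kb. Other genes of retroelement silencing had a row in 8 of 11 cases, with a median of 214. Related zinc finger genes with other names, mostly of the Zscan and Zkscan families, had a row in 15 of 29 cases. Their median of 69.3 per kb was close to that of the KRAB members, but their levels ran from 4.76 to 477 per kb. Of these 15 genes, 6 lay above the median of all listed genes, beside 14 of 125 KRAB members.

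The cell type was checked on its markers. A row means an adjusted p below 0.05 in the authors' stage comparison, which 47.5% of annotated protein-coding genes had. A gene name without a row may still be expressed, so missing rows do not show that a cell type was absent. The 7 Leydig genes, among them Insl3, Cyp17a1 and Star, all had a row, from 21275 to 414861 normalized counts per kb. Of the Sertoli genes Sox9 had no row, Amh was at 82.2 and Dhh at 20.2 per kb. Of 5 germ cell genes 3 had a row, with the spermatid gene Tnp1 at 2301 and Ddx4 at 61.1 per kb. Of 5 immune gene names 4 had a row, up to 170 for Csf1r, and of 4 endothelial genes 2 did, up to 316 for Cdh5. Tcf21, a gene of interstitial progenitors, was at 92.0 per kb, and of 3 peritubular myoid genes 0 had a row. The level of many Zfp genes lay in the range of these markers of other cells, and the part of such cells in the Zfp levels was not tested.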

How the data were processed

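Per the labels, RNA of sorted FLCs and ALCs was made into stranded, ribosome-depleted total RNA libraries and sequenced as 50 bp read pairs, whereas the results text speaks of poly(A)+ RNA. Per the methods and the submitters' processing notes, the authors used CASAVA 1.8.2 for demultiplexing, GemTools 1.7.1 for mapping to GRCm38 and a pipeline of their own for read counts by GENCODE gene. Genes below 10 reads were dropped by the authors before their DESeq2 comparison of the stages. The deposited signal is the authors' mean of normalized counts, that is counts divided by size factors, over all 6 libraries. Depth per library is not given in the sources used here. The other 5 columns of the table hold the authors' own comparison (fold change, its standard error, statistic, p-value and adjusted p), and their values were not used beyond testing that all 10580 rows have an adjusted p below 0.05. The table holds 0 columns of single libraries, so the test of FLCs against ALCs could not be made. In the library names the 3 FLC libraries share a lane with 1 ALC library.

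Gene names were matched to GENCODE vM21 (GRCm38), 10223 by current and 298 by older symbol, and 59 were not matched. The authors' release may differ from it, so lengths are approximate. Means were divided by the union of exons in kb. The longest coding sequence of each member was translated with biopython 1.88. Fingers were counted as cysteine pairs 2 to 4 residues apart, then 12 residues, then histidine pairs 3 to 5 apart. KRAB boxes were found by pattern and by a HMMER 3.4 profile (E-value 0.001), shared bases with BLAST 2.17.0. Searches were tested on simulated data. Promoters came from RefSeq. Alternatives were the length, filters on means of 10 and 100, looser patterns, and gaps of 100 and 1000 kb.

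Members and lists were chosen with earlier results of these data known. The genes named are the 10 highest and 5 lowest members per kb, those of the role list, the highest and lowest of the 5 largest clusters, the 5 members with the most fingers (with ties) and those with at least 50% of bases shared or overlapped.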

Additional observations from a re-analysis of the deposited data

How the results depend on the processing

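Of 27 alternatives, 22 left their value within the limit set (a factor of 1.5 for a count, the exact 95% interval of the median for a level) and 5 moved it, all through the length used. Divided by the longest transcript, the median level was 111 normalized counts per kb for the members and 194 for those without a KRAB pattern, beside 204 for all listed genes. Divided by the median transcript, it was 185 for the members, 134 for KRAB members and 449 for the others, beside 419 for all listed genes. KRAB members had the lower median with each length, and the members without the pattern changed sides against the median of all listed genes, being above it with the union of exons and the median transcript and below it with the longest. The number in clusters was 104 at 100 kb and 143 at 1000 kb. The split of the medians by KRAB class under these settings, and the search of all coding transcripts, were added after seeing the data. No paired analysis was possible because the table holds no value per library, and leaving out each library in turn was not run for the same reason. A mean over libraries also hides how many reads, and from which stage, stand behind a low value.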
